A study of Saccharomyces cerevisiae with 6 samples.

Results

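The windows described here are the 1-kb windows of the yeast genome in which no Ty5 insertion was recovered from any of 6 calling cards libraries. Each chromosome was divided into fixed windows of 1000 bp. Windows were kept from the one with its first insertion to the one with its last, over the 6 libraries. A window was selected on its measured count of 0 insertions in all 6. This rule chose 890 of 11997 windows, or 7.42%. Because the windows were chosen by the insertion counts, their emptiness is a description and carries no test.

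The study profiled TFs of Saccharomyces cerevisiae by calling cards, with 1 library each for Eds1, Ino4, Leu3, Rgt1, Sfp1 and Zap1. All 6 libraries came from strain BY4741 carrying the sir4D genotype, and the libraries differed in the TF that was fused to Sir4 on a plasmid. A second plasmid held a barcoded, HIS3-marked Ty5 retrotransposon driven by the GAL1/10 promoter. Each library grew from a single clone, which was kept on galactose for 3 days, on YPD for 2 days and on plates without histidine containing 5'FOA for 3 days. Genomic DNA was cut in 3 separate digests with restriction enzymes, circularised and amplified outward from Ty5 by inverse PCR. With 1 library per TF there is no replicate check of any value that follows.

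Ty5 is a retrotransposon whose integrase is drawn to Sir4, a silencing protein that normally sits at telomeres and the silent mating-type loci. When Sir4 travels with a TF, Ty5 lands near the DNA that the TF occupies, and an insertion is read out from the genomic sequence beside it. An insertion can be reported only where Ty5 integrated, where a restriction site lay close enough for the inverse PCR, and where the read could be assigned to a place in the genome. Yeast chromosomes also hold sequences in several copies, among them Ty elements, the ribosomal RNA genes and the families of genes near telomeres. The sources used here do not say how reads that fit several places were handled, and the part of any of these steps in the empty windows was not tested.

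The 6 libraries held 203761 insertions, from 15951 for Ino4 and 16019 for Zap1 to 75550 for Leu3. Rgt1 had 29776, Eds1 30707 and Sfp1 35758. An insertion had a median of 34 reads in the Ino4 library, 27 in Sfp1, 24 in Zap1, 18 in Leu3, 4 in Rgt1 and 3 in Eds1. Taken one at a time, the libraries left between 2641 (Leu3) and 7688 (Rgt1) windows empty, so the 890 windows common to all are only part of what each library missed. The Rgt1 library missed more windows than Ino4 (6164) or Zap1 (6097), although it held more insertions than either.

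In number of windows, the count of 0 was not set apart from the low counts next to it. These numbers do not show whether all empty windows are alike. The median window held 6 insertions and the mean was 17.0. Just outside the rule, 943 windows (7.86%) held 1 insertion, 1005 held 2 and 986 held 3. By number of libraries, 1302 windows were hit by 1 library only and 2096 by all 6.

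**Figure D1:**
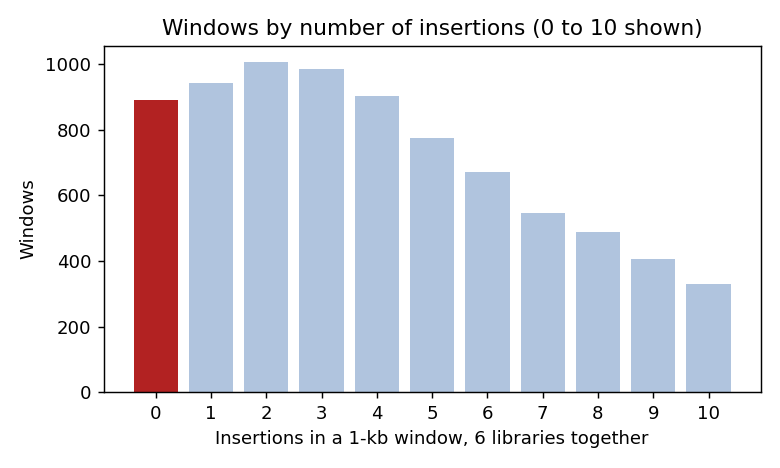
Number of 1-kb windows (y axis) by the insertions they held in the 6 libraries together (x axis, 0 to 10 shown), with the empty windows in red. The 890 empty windows stand beside 943 windows with 1 insertion and 1005 with 2, with no gap between them.

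The windows with a single insertion were also counted by the library that supplied it. Of the 943 windows with 1 insertion, Leu3 supplied 347 (36.8%), close to its 37.1% of all insertions. Zap1 supplied 135 (14.3%) with 7.86% of the insertions, and Rgt1 supplied 41 (4.35%) with 14.6%. Windows hit by 1 library alone, with any number of insertions, came to 10.1 per 1000 insertions in the Zap1 library, 7.47 in Sfp1, 7.32 in Leu3, 6.02 in Eds1, 5.64 in Ino4 and 1.54 in Rgt1. The Zap1 library was thus the highest and the Rgt1 library the lowest on this scale, in which each library is set against its own size. Size here counts every listed insertion, including several at the same position. Distinct positions numbered 19524 for Rgt1, 59912 for Leu3 and 34664 for Sfp1. They numbered 30024 for Eds1, 15694 for Ino4 and 15325 for Zap1.

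The empty windows formed 577 stretches of consecutive windows. Single windows made up 453 of these stretches (78.5%) and held 50.9% of all empty windows. There were 62 stretches of 2 windows, 33 of 3 or 4 windows, and 29 of 5 or more. The 29 longest were 5.03% of the stretches but held 201 windows, 22.6% of the empty ones. In all, 437 empty windows (49.1%) had an empty neighbour, whereas 1092 of the windows with an insertion (9.83%) lay beside an empty one.

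The true distance between the insertions on either side does not depend on where the window grid falls. Around single empty windows the gap had a median of 1547 bp, with a range from 1045 to 2840 bp. Around stretches of 2 it was 2700 bp, around those of 3 or 4 it was 4391 bp, and around those of 5 or more it was 6206 bp.

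Measured directly between neighbouring insertions, gaps became rarer with length up to 5 kb and were more frequent again from 5 to 6 kb. There were 1140 gaps of 1 to 2 kb, 138 of 2 to 3 kb, 23 of 3 to 4 kb and 11 of 4 to 5 kb. From 5 to 6 kb there were 17 and from 6 to 7 kb 10, and only 2 gaps lay between 7 and 8 kb. The 27 gaps of 5 to 7 kb ran from 5021 to 6603 bp with a median of 5778 bp. A further 12 gaps exceeded 7 kb.

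**Figure D2:**
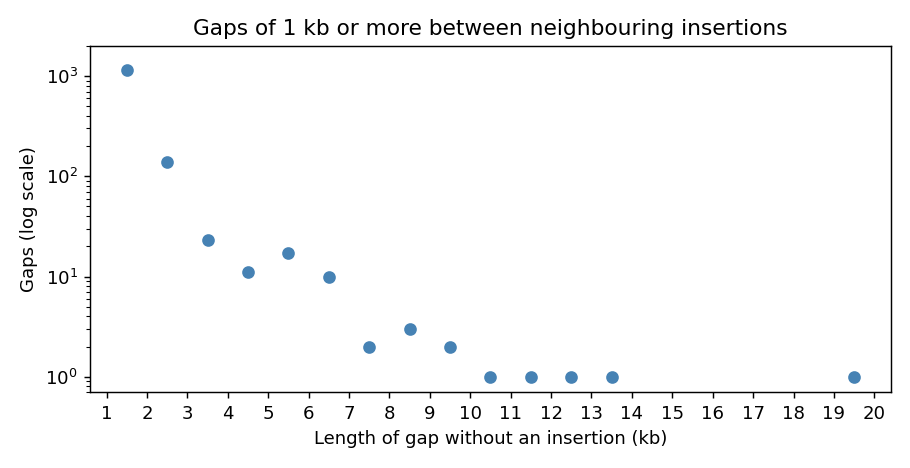
Number of gaps between neighbouring insertions of the 6 libraries together (y axis, log scale) by gap length in kb (x axis, points at the middle of 1-kb bins, gaps of at least 1 kb, bins without a gap not drawn). Counts fell from 1140 at 1 to 2 kb to 11 at 4 to 5 kb, rose to 17 at 5 to 6 kb and fell to 10 at 6 to 7 kb, and the longest gap stood alone at 19 to 20 kb.

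The longest stretch lay on chromosome XII, from 461001 to 479000 in the positions of the files, whose genome build the sources used here do not give. It covered 18 windows, and the insertions around it were 19198 bp apart. The window before it held 209 insertions, 108 of them from Sfp1, and the window after it held 1, an Sfp1 insertion at 479771 supported by 2 reads. That one insertion separated it from a second stretch of 9 windows, from 480001 to 489000, with 97 insertions in the window that followed. Another stretch of 7 windows, from 452001 to 459000, lay just before, with 3 insertions in the window before it and 67 in the window after it. The edges of these 3 stretches were therefore uneven, with some windows of many insertions and others of 1 or 3.

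In the order of genes of the R64 gene table, the 12 ribosomal RNA genes of chromosome XII occupied ranks 226 to 262 of 573, or 39.3% to 45.5% of the order. The 3 stretches began at 42.2%, 43.0% and 44.8% of the span of the chromosome. These are unlike measures, since the first is a share of the gene order and the second a share of the windows along the chromosome. The stretches were not placed on these genes by coordinates. Ribosomal RNA genes encode the RNA core of the ribosome and are carried as a tandem array on this chromosome.

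The next longest stretch lay on chromosome X, from 473001 to 485000, with 12 windows and a gap of 13092 bp. On chromosome VII the 11 windows from 812001 to 823000 had 10 insertions in the window before and 59 in the window after. On chromosome XV 11 windows from 1080001 to 1091000 reached almost to the last insertion of that chromosome, a Leu3 insertion at 1091288 with 1 read. This stretch thus owed its inclusion to a single read, since the windows end at the last insertion.

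Chromosome IV held 10 empty windows from 528001 to 538000, with a gap of 10399 bp. There were 8 windows on each of chromosome I (211001 to 219000), III (84001 to 92000) and VIII (532001 to 540000). Chromosome X held 7 from 9001 to 16000 and 6 from 730001 to 736000, and chromosome VI held 6 from 138001 to 144000. Chromosome X therefore had 3 of the 13 stretches of 6 or more windows, as did chromosome XII.

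The remaining 16 stretches of 5 or more windows were all exactly 5 windows long. They included 646001 to 651000, 1096001 to 1101000 and 1207001 to 1212000 on chromosome IV, and 444001 to 449000 and 493001 to 498000 on chromosome V. Elsewhere, the first along its chromosome began at 536001 on VII, 594001 on XII, 185001 on XIII, 562001 on XIV, 595001 on XV and 57001 on XVI. Their gaps ran from 5519 to 6603 bp. Chromosomes II, IX and XI had no stretch this long, and their longest covered 4 windows (222001 to 226000), 3 windows (110001 to 113000) and 3 windows (494001 to 497000).

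The share of empty windows differed between chromosomes. It was 10.4% on chromosome I (24 of 231 windows, exact 95% interval 6.77% to 15.1%), 10.2% on X (75 of 738) and 9.61% on XII (103 of 1072). It was lowest on XI, at 4.80% (32 of 667, 3.30% to 6.71%), followed by VI at 5.22% and XIV at 5.27%. The other chromosomes lay between 5.80% (II) and 8.20% (III). These intervals treat windows as independent and cover counting error only, while empty windows came in stretches. On chromosome I 8 of the 24 empty windows belonged to 1 stretch, and the intervals of most chromosomes overlapped.

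**Figure D3:**
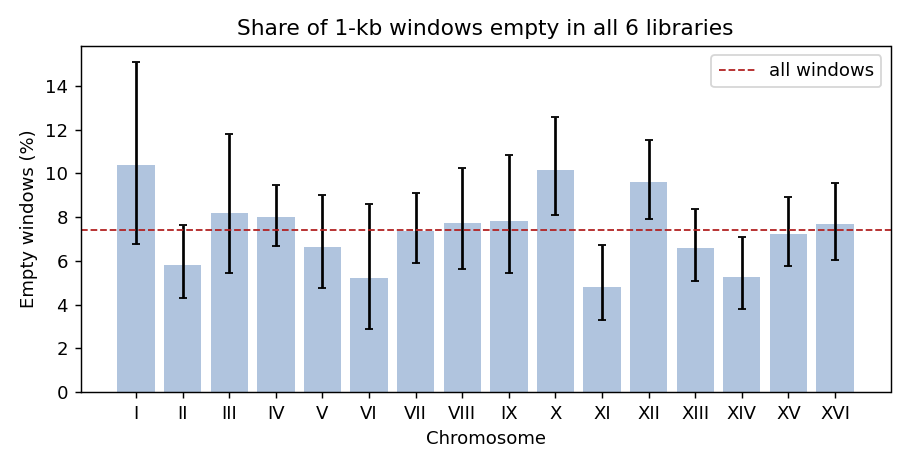
Share of 1-kb windows without an insertion in any of the 6 libraries (y axis, percent) for each of the 16 chromosomes (x axis), with exact 95% intervals for counting error and a dashed line at the 7.42% of all windows. Chromosomes I, X and XII were highest at 10.4%, 10.2% and 9.61%, and XI lowest at 4.80%.

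Near chromosome ends, where Sir4 sits in wild-type cells, empty windows were more frequent. Within 20 kb of the first or last insertion of a chromosome 81 of 640 windows were empty, 12.7% (10.2% to 15.5%), against 7.12% (6.66% to 7.61%) of the other 11357. These intervals also treat windows as independent, while empty windows near ends came in stretches. The stretch at the right end of XV was counted only because of a single Leu3 read. In the outer 10 kb the share of empty windows was 15.6%, and in the outer 30 kb it was 10.0%.

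This difference came from a minority of ends. Of the 32 ends, 16 had no empty window in their outer 20 windows, and 8 ends had 5 or more and together held 66 of the 81. These were the right ends of XV (11 windows), X (10), I (8) and VIII (8), and the left ends of X (8), XII (8), IV (7) and XIII (6). The emptiest of them were also thinly hit in their other windows, with 48 insertions in all over the 20 windows at the right end of X and 101 at that of XV. The left end of IX, which begins at 19646 in these files, held 2800 insertions and no empty window. Positions before the first insertion of a chromosome lie outside the windows and were not counted as empty. The first insertion was at 6792 on XIV and 3085 on VI, whose left ends are, like that of IX, among the 16. On X it was at 8378 and on XVI at 6845.

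Along the chromosomes the share was more even. With each span cut into 10 equal parts it ranged from 5.75% in part 2 to 9.18% in part 5, and it was 6.37% in part 1 and 7.38% in part 10. Part 5 includes the 3 stretches of chromosome XII.

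The rule used all 6 libraries, so a further measurement chose windows empty in 5 libraries. It counted how many held an insertion of the library left out. The span of the windows still came from all 6 libraries. An end window can thus be hit because the left-out library set the end, as for Leu3 on XV at 1091001 to 1092000. Leu3, the largest library, hit 553 of 1443 such windows, 38.3% (35.8% to 40.9%), against 83.4% of the windows with an insertion in the other 5. For Sfp1 it was 23.1% against 72.8%, and for Eds1 17.2% against 67.4%. For Zap1 it was 15.3% against 52.4%, for Ino4 9.18% against 52.1%, and for Rgt1 4.91% (3.62% to 6.50%) against 38.5%. In each of the 6 libraries the windows empty elsewhere were hit less often, and the intervals of the 2 shares did not overlap.

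The left-out library also separated isolated empty windows from those in long stretches. Where a window was empty in the other 5 libraries but both its neighbours were not, Leu3 hit 52.5%, Sfp1 32.2%, Eds1 24.6%, Zap1 23.1%, Ino4 13.0% and Rgt1 6.20%. In stretches of 4 or more windows Leu3 hit 25 of 313 (7.99%, 5.24% to 11.6%) and Sfp1 23 of 312 (7.37%). Eds1 hit 2.52% there, Zap1 2.26%, Ino4 1.53% and Rgt1 1.50%. Windows with 1 insertion in the other libraries were hit more often than the isolated windows, at 59.3% by Leu3, 39.4% by Sfp1, 31.4% by Eds1 and 19.8% by Ino4, and in these 4 libraries the intervals did not overlap. For Zap1 (23.9%) and Rgt1 (10.3%) they did. For Rgt1 the isolated windows and those in stretches of 2 or 3 were hit at 6.20% and 6.44%, with intervals that overlapped. Here too the intervals treat windows as independent, so their overlap is no test.

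**Figure D4:**
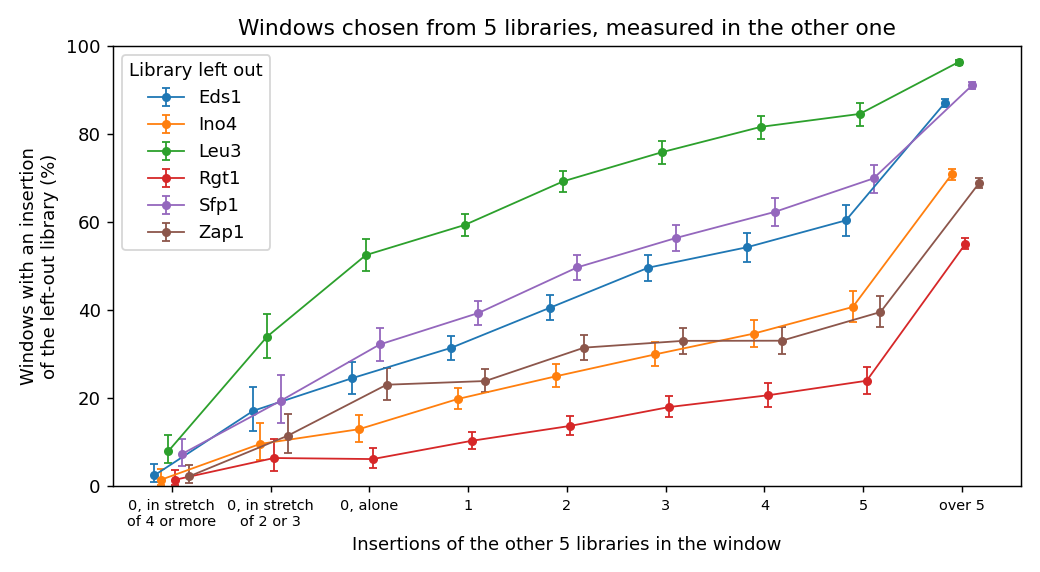
Share of windows with an insertion of the library left out (y axis, percent) by the number of insertions of the other 5 libraries in the window (x axis), with windows at 0 divided by the length of their empty stretch; 1 line per left-out library, bars are exact 95% intervals for counting error. Leu3 rose from 7.99% in stretches of 4 or more to 52.5% in isolated empty windows and 96.3% in windows with over 5 insertions, and Rgt1 from 1.50% to 6.20% and 55.1%.

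The insertions that the left-out library placed in long stretches were mostly single. The 7 windows hit by Eds1, the 4 hit by Ino4 and the 4 hit by Rgt1 held 1 insertion each. Leu3 placed 40 insertions in its 25 windows, and 8 of these lay in 1 window on chromosome VIII, from 542001 to 543000. Some of the windows hit were the first or last of a stretch, as for Ino4 on chromosome I at 219001 to 220000 and on IV at 1101001 to 1102000.

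Windows beside empty stretches were themselves thinly hit. The 1092 flanking windows held a median of 4 insertions (quartiles 2 and 10), against 7 (3 and 15) in all 11107 windows with an insertion. Among the flanks 17.4% held 1 insertion, against 8.49% of all windows with one. The median was 4 beside single empty windows, 3 beside stretches of 2 and of 3 or 4, and 6 beside those of 5 or more. The longest stretches thus had the most densely hit edges of the 4 classes.

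The reads behind each insertion were not used by the rule. In the flanks Ino4 insertions had a median of 18 reads against 34 in the whole library, Leu3 11 against 18, Zap1 16 against 24 and Sfp1 23 against 27. Eds1 had 3 in both, and Rgt1 3 against 4. In 5 of the 6 libraries the flanking insertions rested on fewer reads.

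Genes at the empty stretches could be named on chromosomes I to V, where 1127 of 1840 genes had a promoter that could be placed in the files. The promoters were placed by their insertion counts, so they were never empty themselves, and a gene is named here because it lies between the nearest placed promoters on either side of a stretch, in the order of the R64 gene table. Of the 8 stretches of 5 or more windows on these chromosomes 7 could be bracketed in this way, and they hold 35 genes between them. The right end of chromosome I, beyond YAT1, could not.

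The 10 empty windows of chromosome IV lay between the promoters of KRS1, which encodes lysyl-tRNA synthetase, and ENA1. The genes there are KRS1, ENA5, ENA2 and ENA1, of which the ENA genes are neighbouring near-identical copies that encode sodium pumps of the plasma membrane. From KRS1 onward the first 2 windows held 5 and 4 insertions and the 10 that followed held 0. The first insertion after them is at 538249, and the placed ENA1 promoter begins at 538521.

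On chromosome III the stretch lay between AGP1, an amino acid permease gene, and BUD3, a bud site selection gene. The genes in between are KCC4, YNCC0001C, YCL021W-A, YCL019W, YCL020W, SUP53, LEU2, NFS1 and DCC1. The 5 windows on the AGP1 side held 8, 8, 5, 9 and 4 insertions, the next 8 held 0, and the last 3 held 7, 2 and 3. LEU2, a leucine synthesis gene, is deleted in BY4741, and NFS1 encodes a cysteine desulfurase of mitochondria.

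Chromosome IV held 3 further bracketed stretches of 5 windows. Between GRX3, a glutaredoxin gene, and BMH2, a 14-3-3 protein gene, lie YNCD0014C, YDR098C-B and YDR098C-A, and 5 empty windows were followed by one with 1 insertion. Between the promoters of YDR316W-B and MCM21, a kinetochore gene, lie YDR316W-B and HIM1, and 5 empty windows were followed by 1 and 3 insertions. Between those of YDR365W-B and YPR1 lie YDR365W-B, MOR1 and KEI1, and 5 empty windows were followed by one with 7. In all 3 the empty windows began directly at the left promoter.

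On chromosome V the promoters of BUR6, a transcription regulator gene, and YER159C-A enclosed 5 whole windows, all empty, with YNCE0028C, YER160C and YER159C-A. The other stretch lay between YER137C and UBP5, a ubiquitin protease gene, with SCR1, YNCE0025C, YER138C, YER137C-A, YER138W-A, RTR1, EMP65, COX15, MAG1, DDI1 and UBP5. Its first window held 6 insertions, the next 5 held 0, and the remaining 11 held between 2 and 18. The empty windows were therefore confined to the YER137C side of this bracket.

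**Figure D5:**
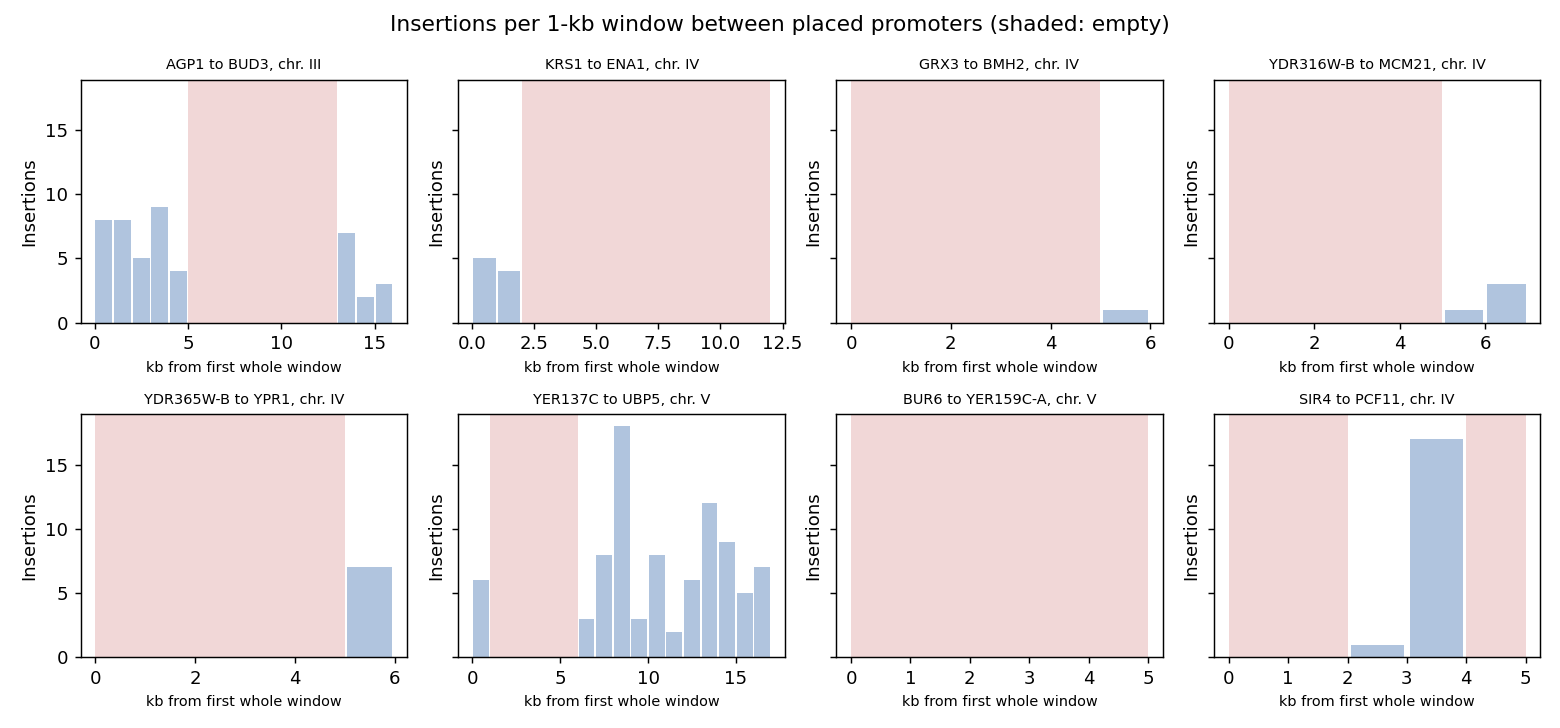
Insertions of the 6 libraries together per 1-kb window (y axis) between placed promoters, against distance in kb from the first whole window after the left promoter (x axis), for the 7 bracketed stretches of 5 or more windows and for SIR4; empty windows are shaded. Between BUR6 and YER159C-A all 5 windows were empty, and between KRS1 and ENA1 10 of 12.

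Shorter stretches gave a like picture. Of 17 stretches of 3 or more windows on chromosomes I to V 15 could be bracketed. They include 2 stretches of chromosome IV, of 3 and 4 windows, between the same promoters, around YDR261W-B, YDR261C-D and YDR261C-C. Another, near the left end of IV, lies among COS7, MPH2, SOR2, HXT15, THI13 and AAD4, where 7 of 15 windows were empty and most of the others held 1 insertion. HXT15 encodes a hexose transporter and AAD4 a putative aryl-alcohol dehydrogenase, both members of multigene families.

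Many of the bracketed genes carry no symbol but only a systematic name that ends in a letter after a hyphen, such as YDR098C-B. A gene of this kind stood in the brackets of 12 of the 15 stretches, and of 6 of the 7 with 5 or more windows, the exception being that of the ENA genes. Of the 64 genes named in this way that could be bracketed on I to V, 17 (26.6%) lay between promoters with a run of 3 or more empty windows, against 44 of 1729 other genes (2.54%). The share with any empty window between the promoters was 31.3% against 24.2%. The names were grouped after the stretches had been seen, and neighbouring genes share a bracket. A gene in a wide bracket need not lie at the empty windows, so these shares are a description. The grouping used only the form of the name, not what a gene encodes. YCL019W, YCL020W, YER138C, YER160C, YAR009C and YAR010C, whose systematic names have no hyphen, counted with the other genes. The chromosome III bracket counted through YCL021W-A alone.

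As a background for the gene lists, 24.4% of the 1793 genes of I to V that could be bracketed had an empty window in their bracket and 3.40% had a run of 3 or more. Summed over these genes, 10.8% of the bracket windows were empty, each window counted once for every gene it belongs to.

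Of the genes that the strain lacks, LEU2, URA3 and SIR4 could be bracketed, and HIS3 and MET17, on chromosomes XV and XII, could not. Between them the 3 brackets held 29 windows, of which 12 were empty (41.4%), 8 of these in the LEU2 bracket. That bracket is 16 windows wide and holds other genes too, among them KCC4, YCL019W, YCL020W and NFS1. Its run of empty windows was therefore not placed at LEU2, and it sets much of the share. At SIR4, the gene removed by the sir4D genotype, the windows from its promoter to that of PCF11 held 0, 0, 1, 17 and 0 insertions. At URA3, a uracil synthesis gene, only 1 of 8 windows was empty, between windows with 2 and 6 insertions, a share near that of all bracketed genes.

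Of the mating-type loci, HMLALPHA1 and HMLALPHA2 shared a bracket of 6 windows with 4, 24, 0, 0, 69 and 15 insertions. This silent locus, at which Sir4 acts in wild-type cells, thus had 2 empty windows directly beside the 69 insertions of the next. MATALPHA1 and MATALPHA2, as the gene table names the locus, shared 12 windows, of which 2 were empty. The brackets of HMRA1 (4 windows) and HMRA2 (6 windows), at the other silent locus, had none. HML, MAT and HMR carry sequence in common. SIR1, on chromosome XI, could not be bracketed.

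Of 3 groups of genes that growing cells use, RNA polymerase had the highest share of empty windows in its brackets, 26.7%, followed by glycolysis with 17.4% and the proteasome with 11.4%, beside the 10.8% over all bracketed genes. With 5 to 8 genes a group, 1 or 2 brackets set these shares. The brackets of the 8 proteasome genes held 44 windows, of which 5 were empty, 4 of them in the wide bracket of RPN5 and 1 in that of RPN6. Those of the 5 RNA polymerase genes held 30 windows with 8 empty. RPO21, which encodes the largest subunit of RNA polymerase II, had 6, 0, 0, 1, 1, 1, 1 and 0 insertions in its 8 windows. RPC53 shared the bracket of RPN5, so its 4 empty windows are the same ones, and RPC11 had 1. RPB5 and RPB7 had none.

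For glycolysis, 5 of 6 genes could be bracketed, and 4 of their 23 windows were empty. CDC19, the pyruvate kinase gene, had 169 insertions in the first window of its bracket and 0 in the last 2. PGK1 and TPI1 had 1 empty window each, PGI1 and GLK1 had none, and TDH1 could not be bracketed. Of the genes of the 6 TFs only EDS1 could be, and its 4 windows held 13, 4, 3 and 9 insertions.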

How the data were processed

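The authors recovered Ty5 insertions by inverse PCR and sequencing, and the deposited files list insertions by chromosome and position together with the read count of each, not normalized. The submitters' processing notes name Novoalign, and the sources used here give neither its version nor the genome build. The order of lines repeats the series of chromosomes in all files but that of Sfp1, and these repeats, whose meaning is not given, were not treated as replicates.

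Insertions were counted per window, (position - 1) // 1000, and consecutive empty windows were joined. A window counts as near an end within 20 kb of the first or last insertion. Shares have exact Clopper-Pearson 95% intervals. PCR reads carry no molecular identifiers, so intervals cover counting error only. The depth of each library stands in the report. No test was made, since the rule uses the counts themselves.

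Promoters were placed with the authors' scores per gene, in a copy that holds 1967 nuclear genes, 1750 of them in the R64 gene table. The form of the score, a Poisson p against a background of 103922 insertions, was inferred from its values. The counts of the 6 libraries were solved from the scores, and each promoter was placed at the stretch of at most 700 bp that holds exactly these counts, overlapping fits being merged. Genes with at least 20 insertions were placed on their own (419) and genes with at least 5 between placed neighbours (708). Placement on its own was tested on stretches of known position with at least 20 insertions, using their true counts. The outcome of this test is not given here. Neither the placement of the 708 genes between neighbours nor the solving of counts from scores was tested in this way. No score is reported. The table served for names and gene order only. Its gene lengths were not used, because its build could not be matched to that of the files, so the intended order of genes by coding length was dropped and every gene at a bracketed stretch of 5 or more windows is named.

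Regions named are the 15 longest stretches, the longest of each chromosome and others of 5 windows. Lists were the genes deleted in the strain, the mating-type loci, proteasome, RNA polymerase and glycolysis genes, and the genes of the 6 TFs. The members and lists were chosen with earlier results of these data known. The placement limits and the grouping by systematic name were chosen after the files were seen. Alternatives were another grid, window size, read minimum and end zone, wider flanks, shorter stretches and each library left out. Python 3.11.15, numpy 2.4.6, pandas 2.3.3, scipy 1.17.1 and matplotlib 3.10.9 were used.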

Additional observations from a re-analysis of the deposited data

How the results depend on the processing

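The number of empty windows, 890 in 577 stretches, depended on the window size and on what counted as an insertion. It was 4482 windows in 2715 stretches with 500 bp windows and 161 in 96 with 2000 bp windows. It was 1795 in 1164 when only insertions with 5 or more reads counted, and 1833 in 1157 when windows with at most 1 insertion were taken as empty. With each library left out it ran from 936 to 1443 windows and from 603 to 994 stretches, the highest without Leu3, the largest library. The longest stretch, 18000 bp, became 28000 bp at 5 or more reads, with at most 1 insertion allowed, and without Sfp1, whose single insertion divides it from the next; it ran from 18000 to 28000 bp over the libraries left out. Near chromosome ends the excess of 5.53 percentage points was 8.43 with an end zone of 10 kb and 2.81 with 30 kb. It was 7.30 with the grid shifted by 500 bp, and ran from 3.80 without Leu3 to 5.90 without Ino4. Counting only insertions with 2 or more reads, the left-out library hit 14.3% for Eds1, 2.38% for Rgt1 and 12.9% for Zap1, and with the grid shifted by 500 bp Sfp1 hit 25.6%. Bracketed stretches numbered 7 at 5 or more windows and 15 at 3 or more. No paired analysis was possible because each TF has 1 library and the labels give no replicate numbers.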
